A study of Mus musculus with 6 samples.

Results

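A group of 9 mouse genes was read from a table of 3′ end RNA counts of spleen labelled as leukaemic. These genes set how lymphocytes stick to vessel walls and how they leave lymphoid organs. The 9 genes were the factor Klf2, the sphingosine 1-phosphate receptor S1pr1, the selectin ligand Selplg, the hyaluronan receptor Cd44, and the integrin subunits Itgal, Itga4, Itgb1, Itgb7 and Itgae. They were given by name, for their roles, in a choice made with earlier results of these data known. They were found in the table by Entrez gene ID. All 9 were present among the 40808 gene IDs of the table. All 9 passed the filter on low counts that left 14110 genes to test.

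There were 3 libraries labelled as receiving no Dox (replicates 4, 5 and 6) and 3 labelled as receiving Dox (replicates 10, 11 and 12). All 6 were labelled as poly(A) RNA of leukaemia cells taken from the spleen of mice that had been given a bone marrow transplant. The share of leukaemia cells in each library was not measured. Cell type markers differed widely between the groups, as given further on. The labels name no genotype, strain, age or sex, no transgene, and neither a dose nor a duration for Dox. They do not say whether the libraries of a group came from separate mice, so the p-values measure the spread between these libraries only. Total counts ran from 5541486 to 8725767, and 3 counts, used as the floor of detection, were worth 0.309 to 0.608 normalized CPM (counts scaled to a shared library total), depending on the library. That limit covers the error of counting alone.

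In the blood vessel, a lymphocyte first rolls on selectins through glycosylated PSGL-1, the product of Selplg, then arrests through integrins, each of which is a pair of an alpha and a beta chain. Itgal pairs with Itgb2 to form LFA-1, which binds ICAM proteins. Itga4 pairs with Itgb1 to form VLA-4, which binds VCAM1 and fibronectin, or with Itgb7 to form the gut-homing integrin that binds MAdCAM-1, and Itgae pairs with Itgb7 to bind E-cadherin. Leaving a lymphoid organ depends on S1pr1, which senses sphingosine 1-phosphate in blood and lymph, and in T cells Klf2 is an activator of S1pr1. Klf2 is itself kept on in quiescent lymphocytes, with FOXO1 and MEF2 factors among its known activators.

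Promoter sequences were looked up in RefSeq (GRCm38.p6) for all 9 genes. The lookup was made because the gene of a MEF2 factor rose with Dox, as did 6 of the 9, as given further on. A link between these rises was not tested. Of the 9 genes, 5 had an entry (Klf2, Cd44, Itga4, Itgb1 and Itgb7), and 4 did not (S1pr1, Selplg, Itgal and Itgae). Printed here are the 3 that held a match to either motif searched, while Cd44, which also rose, and Itgb1 held neither. Since they were chosen for holding a match, the choice supports nothing about the motifs. Each is printed 5′ to 3′ on the gene's own strand and ends at the base before the first start annotated for the gene by GENCODE M21. Capitals in Klf2 mark a match to the MEF2 consensus, and capitals in Itga4 and Itgb7 mark CCACCC, the CACCC box that KLF factors are known to bind, read on either strand.
Klf2, chr8:72318812-72319032, plus strand: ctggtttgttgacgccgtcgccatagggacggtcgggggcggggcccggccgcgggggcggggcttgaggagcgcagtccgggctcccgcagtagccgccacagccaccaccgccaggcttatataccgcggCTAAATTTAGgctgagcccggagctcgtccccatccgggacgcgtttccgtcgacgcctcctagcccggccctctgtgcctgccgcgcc
Itga4, chr2:79255176-79255425, plus strand: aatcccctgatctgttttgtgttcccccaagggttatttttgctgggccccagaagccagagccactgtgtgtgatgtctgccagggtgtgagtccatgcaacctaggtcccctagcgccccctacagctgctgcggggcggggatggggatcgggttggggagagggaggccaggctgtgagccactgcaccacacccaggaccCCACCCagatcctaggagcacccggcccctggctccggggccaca
Itgb7, chr15:102231945-102232185, minus strand: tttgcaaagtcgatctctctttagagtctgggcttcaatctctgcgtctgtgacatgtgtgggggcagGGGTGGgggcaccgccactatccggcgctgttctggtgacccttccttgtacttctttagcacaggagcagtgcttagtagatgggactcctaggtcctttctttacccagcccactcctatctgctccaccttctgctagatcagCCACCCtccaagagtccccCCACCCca
In Klf2 the 10 marked bases end 80 bases before the annotated start. A MEF2 consensus match on either strand was present in 3.19% of the 32851 promoter entries (each 300 bases long). The exact 10 bases found in Klf2 were present in 0.0396%, or 13 entries. A single form of a consensus is rarer than the consensus, so this share does not set Klf2 apart. None of the other 4 promoters held a MEF2 match. CCACCC was present in 31.5% of all entries and in 3 of the 5 promoters, namely Klf2 (in the part not printed), Itga4 and Itgb7. Itgb7 held 3 of them, 1 on the opposite strand as GGGTGG, the nearest ending 3 bases before the annotated start. RefSeq draws a longer span for Itgb7 than GENCODE, and its printed window lies inside that span. These matches describe letters in a window and say nothing of binding.

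Between the groups, 8 of the 9 genes were called different, with an edgeR quasi-likelihood p-value under 0.05 after adjustment over all tested genes. Klf2, S1pr1, Cd44, Itga4, Itgb7 and Itgae were higher with Dox, Selplg and Itgal were lower, and Itgb1 did not pass the threshold. The background was high: 45.6% of all tested genes were called, 23.6% higher and 22.1% lower. The median log2 fold change, with Dox minus without, was 1.45 over the 9 genes and 0.07 over all tested genes (quartiles -0.95 and 1.16). Normalized CPM of the groups did not overlap for any of the 9 genes, as for 59.6% of all tested genes. The share of calls that were higher was 51.6% over all genes, and 64.3% when libraries were scaled by size only, a scaling that moved the log2 fold changes of all genes up by 0.31 at the median. None of the 9 genes changed direction under any scaling tried.

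**Figure D1:**
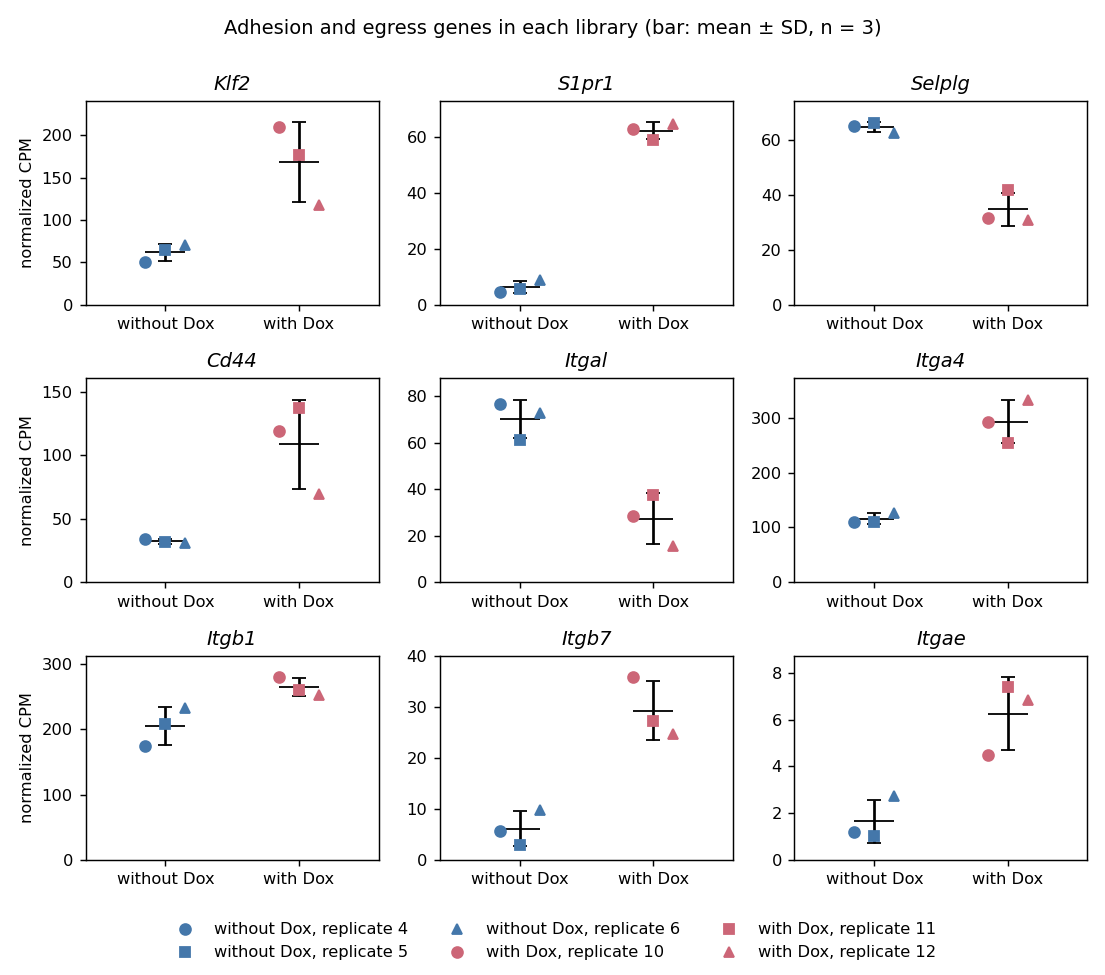
Normalized CPM (vertical axes, starting at 0) of the 9 genes in each library, with the mean and SD of each group (n = 3). S1pr1 stands at 4.63 to 8.65 without Dox and 58.9 to 64.8 with Dox, whereas the Itgb1 groups come close, with 232 as the highest value without Dox and 253 as the lowest with Dox.

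Cell type markers moved with the groups. The summed level of 14 T cell markers was 2708 to 2826 normalized CPM without Dox and 222 to 286 with Dox, with 13 lower. The sum of 12 B cell markers was 40.4 to 47.8 without Dox and 2404 to 2560 with Dox, with 12 of 12 higher. Neutrophil markers (10 of 10 higher) summed to 52.9 to 69.8 and 2037 to 2213, platelet and megakaryocyte markers (7 of 8 higher, 1 not tested) to 74.8 to 80.4 and 348 to 410, and dendritic cell markers (6 of 7 higher) to 9.83 to 14.8 and 104 to 114. Macrophage and monocyte markers (3 higher and 4 lower of 12) summed to 723 to 872 and 887 to 1139. Endothelial and stromal markers (3 higher and 2 lower of 10) summed to 392 to 430 and 532 to 676. NK cell markers (1 higher, Eomes, and 1 lower, Gzma, of 8, with 5 not tested) summed to 348 to 398 and 11.5 to 26.8. Most of the sum without Dox was Gzma, a granzyme gene, at 341 to 395 normalized CPM, and the other 7 NK cell markers summed to 3.22 to 6.89 without Dox and 11.5 to 26.8 with Dox. Erythroid markers (4 higher and 2 lower of 9 found) summed to 94110 to 104200 and 133100 to 143000. The markers at 0 counts in all libraries of a group included Ly6g, Klre1 and Klra8 without Dox, and Gzma and Klra8 with Dox. Among these marker genes, 5 (Lck, Vcam1, Itgax, Itga2b and Itgb3) also stand in the pathway lists used further on.

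The part of these cell types in the differences of the 9 genes was not tested. In bulk RNA, fewer cells of a type and less RNA per cell cannot be told apart. Sex-linked RNA followed the groups too: Xist had 193 to 324 counts without Dox and 3347 to 5669 with Dox. Together, 4 Y-linked genes had 545 to 801 counts without Dox and 0 with Dox. Libraries without Dox thus held both. In transplanted mice these counts do not tell the sex of the mice from that of the donor cells. Effects of Dox, of sex and of the share of donor cells therefore cannot be told apart. The spread between libraries also differed, with a common biological coefficient of variation of 0.19 without Dox and 0.515 with Dox.

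Klf2 (Entrez gene 16598, chromosome 8, 72319062 to 72321654 on GRCm38) encodes the factor that holds naive and memory T cells in a quiescent, recirculating state, and it is active in B cells and endothelium as well. Its level was 50.3, 65.1 and 70.2 normalized CPM without Dox and 210, 177 and 118 with Dox. All libraries with Dox were above all without, although replicate 12 stood nearer to the lower group than the others did. Klf2 rose by 1.45 on the log2 scale (with an SE of 0.24, edgeR adjusted p = 0.00086), 2.72-fold in the means.

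S1pr1 (Entrez gene 13609, chromosome 3, 115710433 to 115715055) encodes the receptor that draws lymphocytes out along the sphingosine 1-phosphate gradient, and is also abundant in endothelium. In the libraries without Dox it had 31, 27 and 51 counts, and in those with Dox 463, 572 and 492, or 4.63, 5.47 and 8.65 against 63.0, 58.9 and 64.8 normalized CPM. The 3 libraries with Dox lay within 1.1-fold of each other. S1pr1 rose by 3.31 on the log2 scale (with an SE of 0.29, edgeR adjusted p = 1.67e-05), the largest difference of the 9 genes, and 92.8% of all tested genes had a smaller absolute log2 fold change, against 63.8% for Klf2. Over the alternatives its log2 fold change ran from 3.09 to 3.62.

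The genes of rolling and matrix contact moved in opposite directions. Selplg (Entrez gene 20345, chromosome 5, 113817798 to 113832528), a ligand of selectins, stood at 65.4, 66.3 and 62.7 normalized CPM without Dox and 31.7, 41.8 and 31.0 with Dox. The libraries without Dox were within 1.06-fold of each other, the tightest group of values among the 9 genes. Selplg fell by 0.89 on the log2 scale (with an SE of 0.20, edgeR adjusted p = 0.0050), a 1.86-fold lower mean.

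Cd44 (Entrez gene 12505, chromosome 2, 102811141 to 102901669) encodes the receptor for hyaluronan that is raised on activated and memory lymphocytes and on myeloid cells. It stood at 34.3, 31.6 and 30.7 normalized CPM without Dox and at 119, 138 and 69.9 with Dox. Replicate 12 was the lowest of the group with Dox, yet lay above every library without Dox. Cd44 rose by 1.75 on the log2 scale (with an SE of 0.26, edgeR adjusted p = 0.00041). Reads from the 3′ end do not tell the variant exons of Cd44 apart, so the value covers the gene as a whole.

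Of the 5 integrin genes among the 9, the LFA-1 alpha chain was the one that fell. Itgal (Entrez gene 16408, chromosome 7, 127296139 to 127335137) is the alpha chain that lets lymphocytes arrest on ICAM proteins and form contacts with other cells. It stood at 76.7, 61.2 and 72.9 normalized CPM without Dox and 28.3, 37.7 and 15.7 with Dox. The groups were apart, and the libraries with Dox spread over 2.40-fold, with replicate 12 lowest. Itgal fell by 1.37 on the log2 scale (with an SE of 0.30, edgeR adjusted p = 0.0044), a 2.58-fold lower mean. Its beta chain gene Itgb2, shared by several leukocyte integrins, was 47.1 ± 10.03 without Dox and 33.2 ± 10.9 normalized CPM with Dox (SD over n = 3 libraries each). Its 2 groups overlapped and the test was not passed (log2 fold change -0.50 ± 0.29 (SE), edgeR adjusted p = 0.181).

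The alpha4 integrin chain had more transcript with Dox. Itga4 (Entrez gene 16401, chromosome 2, 79255426 to 79333114), which serves homing to inflamed tissue, marrow and gut, was at 110, 110 and 127 normalized CPM without Dox and 293, 255 and 333 with Dox. Itga4 rose by 1.35 on the log2 scale (with an SE of 0.17, edgeR adjusted p = 0.00015). Raw counts of Itga4 were 543 to 749 per library without Dox and 2155 to 2528 with Dox. An exon of Cerkl overlaps the 3′ end of Itga4 on the opposite strand. Whether the counting used strand is not given in the sources used here. Cerkl itself had 1 to 31 counts per library. Counting without strand may leave reads in the overlap out of both genes, so these low counts do not settle its effect on Itga4.

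Itgb1 (Entrez gene 16412, chromosome 8, 128685654 to 128733579), the beta chain common to many matrix receptors and expressed by nearly every nucleated cell, was at 175, 208 and 232 normalized CPM without Dox and 280, 261 and 253 with Dox. The groups were next to each other without overlapping, and the test was not passed (log2 fold change 0.37 ± 0.16 (SE), edgeR adjusted p = 0.087). It passed with upper-quartile factors (adjusted p = 0.037), with scaling by library size only (0.0089) and with a filter of 10 counts in every library (0.026). No left-out library brought it past the threshold.

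Itgb7 (Entrez gene 16421, chromosome 15, 102215994 to 102233405), the beta chain of the gut-homing integrins, had 38, 14 and 57 counts without Dox and 263, 264 and 188 with Dox. In normalized CPM these were 5.67, 2.84 and 9.66 against 35.8, 27.2 and 24.8. Every library with Dox was above every library without, and the libraries without Dox differed among themselves by 3.41-fold. Itgb7 rose by 2.26 on the log2 scale (with an SE of 0.43, edgeR adjusted p = 0.0018).

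Itgae (Entrez gene 16407, chromosome 11, 73090505 to 73147449), the CD103 chain of tissue-resident T cells and of a class of dendritic cells, was the lowest of the 9 genes. It had 8, 5 and 16 counts without Dox and 33, 72 and 52 with Dox, or 1.19, 1.01 and 2.71 against 4.49, 7.41 and 6.85 normalized CPM. The groups did not overlap and the edgeR log2 fold change was 1.92 ± 0.70 (SE), at an adjusted p of 0.046. This call depended on single libraries. It was lost without replicate 4, 5 or 6 (adjusted p = 0.166, 0.177 and 0.051) and without replicate 11 or 12 (0.089 and 0.076), as well as with limma-voom (0.062) and without a low-count filter (0.168). Without any one of these libraries, 7 of the 9 genes were called in place of 8.

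**Figure D2:**
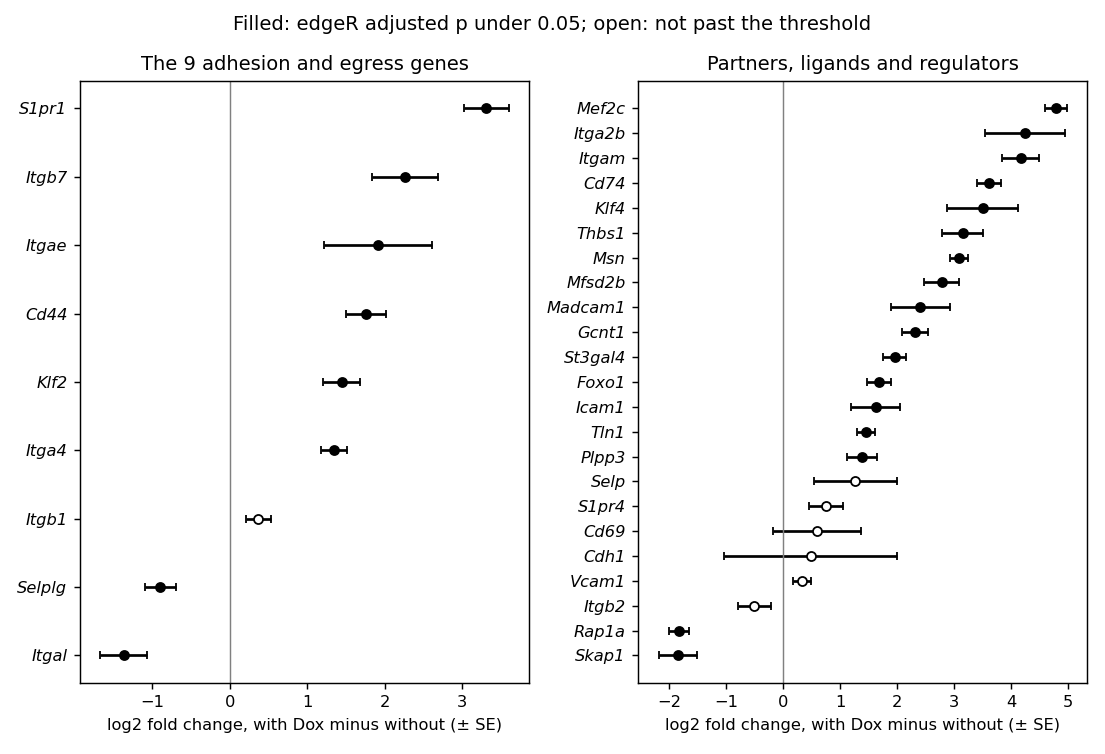
Log2 fold change with Dox minus without (horizontal axes, point and SE from edgeR) of the 9 genes on the left and of the tested partner, ligand and regulator genes reported by name under the rule on the right. Among the 9 genes S1pr1 is highest at 3.31 and Itgal lowest at -1.37, and the open symbol at 0.37 is Itgb1.

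Because a 3′ end library counts a transcript once whatever its length, normalized CPM of different genes could be ordered within a group. Without Dox the order by mean level was Itgb1, Itga4, Itgal, Selplg, Klf2, Cd44, S1pr1, Itgb7 and Itgae. The ranges of Itgal, Selplg and Klf2 overlapped from one to the next, as did those of S1pr1 and Itgb7. With Dox the order was Itga4, Itgb1, Klf2, Cd44, S1pr1, Selplg, Itgb7, Itgal and Itgae. Here the ranges of Itga4 and Itgb1 overlapped, as did those of Klf2 and Cd44, and those of Selplg, Itgb7 and Itgal from one to the next. Itgal thus stood at rank 3 without Dox and rank 8 with Dox, and S1pr1 at ranks 7 and 5.

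To compare partners without any scaling between libraries, the counts of 6 gene pairs were set against each other within each library. Itgb7 made up 3.14%, 1.35% and 3.997% of the counts of Itgb7 and Itgb1 without Dox and 11.4%, 9.44% and 8.92% with Dox. Itgal made up 37.8% ± 3.0 of the counts of Itgal and Itga4 without Dox and 8.73% ± 4.196 with Dox (SD over n = 3 libraries each). Selplg made up 66.8% ± 1.1 of Selplg and Cd44 without Dox and 25.03% ± 5.1 with Dox (SD over n = 3 libraries each). S1pr1 made up 27.9%, 28.7% and 45.1% of the counts of S1pr1 and S1pr4, a receptor of the same ligand in haematopoietic cells, without Dox, and 79.6%, 71.4% and 75.7% with Dox. In these 4 pairs the groups did not overlap, and each had an exact two-sided permutation p of 0.1, the smallest that 3 against 3 can give (0.15 adjusted over the 6 pairs).

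In the other pairs the groups overlapped. Itgal made up 60.1% ± 3.6 of the counts of Itgal and Itgb2 without Dox and 44.8% ± 12.9 with Dox (SD over n = 3 libraries each; exact two-sided permutation p = 0.2, adjusted 0.24). Itgae made up 1.36% ± 0.64 of Itgae and Itga4 without Dox and 2.12% ± 0.67 with Dox (SD over n = 3 libraries each; exact two-sided permutation p = 0.3, adjusted 0.3).

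**Figure D3:**
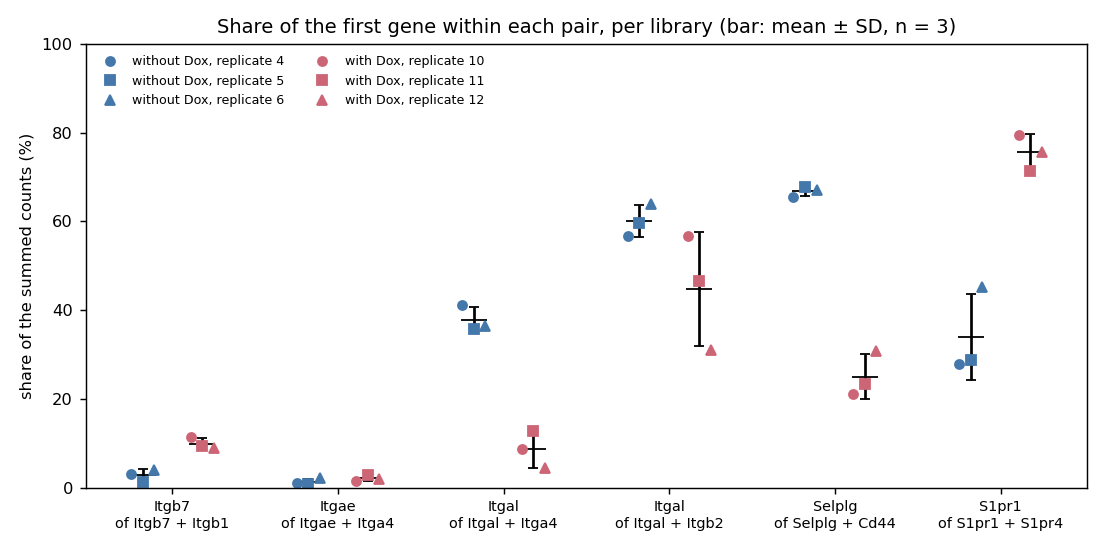
Share (%, vertical axis from 0 to 100) of the first gene in the summed counts of each of 6 gene pairs, per library, with mean and SD (n = 3 per group). Selplg goes from about 66.8% to 25.03% of the pair with Cd44, while the Itgal share of the pair with Itgb2 overlaps between the groups.

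The other genes of adhesion and egress were taken from 7 lists written from general knowledge, with earlier results of these data known. Of 108 genes, 98 were tested and 49 (50%) were called, 34 higher and 15 lower, beside 45.6% of all tested genes. The called share was 76.9% for other leukocyte integrin subunits, 50% for integrin activation and linkage, and 33.3% for integrin ligands. It was 45.5% for the selectin list, 33.3% for the sphingosine 1-phosphate axis, 52.9% for the KLF list and 55.6% for CD44 partners. Among the other leukocyte integrin subunits, 8 of 13 tested genes were higher and 2 lower. Itgam, the alpha chain of the myeloid integrin Mac-1, rose from 2.84 ± 0.91 to 51.6 ± 8.4 normalized CPM, and Itga2b, the platelet fibrinogen receptor chain, from 1.64 ± 1.47 to 30.8 ± 4.1 (SD over n = 3 libraries each). Those lower were Itga9, with a log2 fold change of -0.67 ± 0.19 (SE), and Itgad, with -2.53 ± 0.81 (SE), both named after their values were seen. Itga9 lost its call without replicate 4 (edgeR adjusted p = 0.063) and with scaling by library size only (0.140, log2 fold change -0.36). Itgad lost it without replicate 4, 5 or 6 (0.130, 0.098 and 0.066), with scaling by library size only (0.051) and in limma-voom with group weights (0.068), and its log2 fold change was -3.42 without replicate 10. That of Itga2b was 4.24, and 3.56 without replicate 6.

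Genes that regulate integrin activation or tie integrins to actin were divided, with 7 of 24 tested genes higher and 5 lower. The list holds activators and inhibitors, so these counts give no direction of integrin activation. Tln1, or talin, which opens the integrin head by binding the beta tail, rose from 248 ± 12 to 678 ± 104 normalized CPM (SD over n = 3 libraries each; edgeR adjusted p = 6.55e-05). Rap1a, a small GTPase that drives talin to integrins, fell from 213 ± 13 to 60.1 ± 7.6 (SD over n = 3 libraries each; edgeR adjusted p = 2.55e-05). Skap1, a T cell adaptor for LFA-1 activation, fell by 1.85 on the log2 scale (SE 0.33). The others lower were Rasgrp1, a T cell Ras activator, Rapgef2, a Rap activator, and Itgb1bp1, which binds the Itgb1 tail, with log2 fold changes of -1.40, -0.79 and -0.92. The Itgb1bp1 call was lost without replicate 6 (edgeR adjusted p = 0.096) or 10 (0.058), and those of Rapgef2 (0.057) and Itgb1bp1 (0.124) with scaling by library size only.

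Of the integrin ligands, 3 of 9 tested genes were higher and 0 lower at the adjusted threshold (edgeR), as with DESeq2 and limma-voom. At an unadjusted p under 0.05, edgeR also called 0 lower. Icam1, the LFA-1 ligand, had a log2 fold change of 1.62 ± 0.43 (SE, edgeR adjusted p = 0.012). The Icam1 call was lost without replicate 5 (adjusted p = 0.068) or 6 (0.061). Madcam1, the ligand of the Itga4 and Itgb7 pair, went from 2.55 ± 0.72 to 13.5 ± 5.8 normalized CPM (SD over n = 3 libraries each; edgeR adjusted p = 0.0039), and Thbs1, a platelet and matrix protein, rose by 3.15 on the log2 scale (SE 0.36). Vcam1, the ligand of the Itga4 and Itgb1 pair and a marker of red pulp macrophages, was 266 ± 24 and 335 ± 50 normalized CPM (SD over n = 3 libraries each). Its groups overlapped (edgeR adjusted p = 0.129), and it passed without replicate 12 (0.019), with scaling by library size only (0.013) and with at least 10 counts in every library (0.042). Cdh1, the ligand of the Itgae and Itgb7 pair, stood at 0.94 ± 1.15 and 1.30 ± 1.23 normalized CPM (SD over n = 3 libraries each), near the floor of 3 counts.

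Of the selectins and the enzymes that decorate PSGL-1, 3 of 11 tested genes were higher and 2 lower. Gcnt1, which builds the branched O-glycans of selectin ligands, rose by 2.31 on the log2 scale (SE 0.22), and St3gal4, a sialyltransferase, rose by 1.96 (SE 0.21). Tpst1, a tyrosine sulphotransferase, fell by 2.13 on the log2 scale (SE 0.53), and by 3.08 without replicate 11. B4galt1, a galactosyltransferase, had a log2 fold change of 0.68 ± 0.24 (SE, edgeR adjusted p = 0.041), a call lost without replicate 4, 5, 6, 10 or 11 (0.194, 0.189, 0.066, 0.123 and 0.137) and without a low-count filter (0.080). Selp, the platelet and endothelial selectin that PSGL-1 binds, was 2.02 ± 0.65 and 4.92 ± 2.28 normalized CPM (SD over n = 3 libraries each; edgeR adjusted p = 0.183).

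In the sphingosine 1-phosphate axis, 5 of 15 tested genes were higher and 0 lower at the adjusted threshold (edgeR). At an unadjusted p under 0.05, 3 were lower, and DESeq2 and limma-voom called 2 and 3 lower after adjustment, so the 0 depended on the test. Mfsd2b, the exporter of the lipid from red cells and platelets, rose by 2.78 on the log2 scale (SE 0.31), and Plpp3, a phosphatase that degrades it, rose by 1.38 (SE 0.26). Grk2, the kinase that desensitizes S1pr1, rose from 99.1 ± 4.3 to 214 ± 44 normalized CPM (SD over n = 3 libraries each; edgeR adjusted p = 0.00090). S1pr3, a receptor of vessels and stroma, rose by 3.52 on the log2 scale (SE 0.88), from 4, 0 and 16 counts without Dox, and by 2.93 without replicate 5 and 5.14 without replicate 6. Sphk2, a kinase that makes the lipid, had a log2 fold change of 0.92 ± 0.33 (SE, edgeR adjusted p = 0.046), and its call was lost without replicate 4, 5, 6 or 11 (0.119, 0.20, 0.153 and 0.177), with RLE factors (0.053), without a low-count filter (0.1495), with DESeq2 (0.052) and with limma-voom (0.065).

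S1pr4 was 12.01 ± 1.5 and 20.2 ± 3.7 normalized CPM (SD over n = 3 libraries each; edgeR adjusted p = 0.065), and it passed without replicate 10 (0.049) and in 4 other alternatives. Cd69, whose product pulls S1pr1 off the cell surface, was at 2.99 ± 0.92 and 4.55 ± 3.82 normalized CPM (SD over n = 3 libraries each; edgeR adjusted p = 0.556). S1pr5, the receptor of NK cell egress, was left out by the low-count filter, with 0, 0 and 0 counts without Dox and 8, 55 and 1 with Dox.

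Among KLF factors and regulators of Klf2, 6 of 17 genes were higher and 3 lower. Mef2c, a MEF2 factor of B cells, myeloid cells and endothelium, rose from 23.8 ± 1.5 to 656 ± 106 normalized CPM (SD over n = 3 libraries each), with a log2 difference of 4.78 ± 0.19 (SE, edgeR adjusted p = 5.37e-07). Foxo1, which in T cells activates Klf2, rose by 1.68 (SE 0.21, edgeR adjusted p = 0.00013). Klf4, a myeloid and endothelial factor close to Klf2, rose by 3.50 (SE 0.63). Those lower were Klf13, from 278 ± 9 to 90.9 ± 18.4 normalized CPM (SD over n = 3 libraries each), Klf10, with a log2 fold change of -3.002 ± 0.61 (SE), and Ccm2, of a complex that restrains the kinase cascade above Klf2 in endothelium, with -0.76 ± 0.21 (SE). Without replicate 10 the log2 fold change of Klf10 was -3.99, and without replicate 6 that of Klf4 was 2.88. The call of Ccm2 was lost with scaling by library size only (edgeR adjusted p = 0.112).

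Among partners of CD44 and the proteins that link membrane receptors to actin, 2 of 9 tested genes were higher and 3 lower. Msn, or moesin, rose from 99.9 ± 6.1 to 847 ± 80 normalized CPM (SD over n = 3 libraries each; edgeR adjusted p = 1.41e-06), while its close relative Ezr, or ezrin, fell from 349 ± 9.7 to 179 ± 18 (SD over n = 3 libraries each; edgeR adjusted p = 0.00059). Rdx, or radixin, the other relative, had a log2 fold change of -0.91 ± 0.31 (SE, edgeR adjusted p = 0.039). Its call was lost without replicate 4, 5, 6, 10 or 11 (0.088, 0.080, 0.055, 0.118 and 0.105), with upper-quartile factors (0.058) and with library size only (0.122, log2 fold change -0.60), and without replicate 12 the log2 fold change was -1.46. Cd74, the MHC class II invariant chain that signals with CD44, rose by 3.60 on the log2 scale (SE 0.21), and Lck, the T cell kinase that binds CD4 and CD8, fell by 2.91 (SE 0.21).

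**Figure D4:**
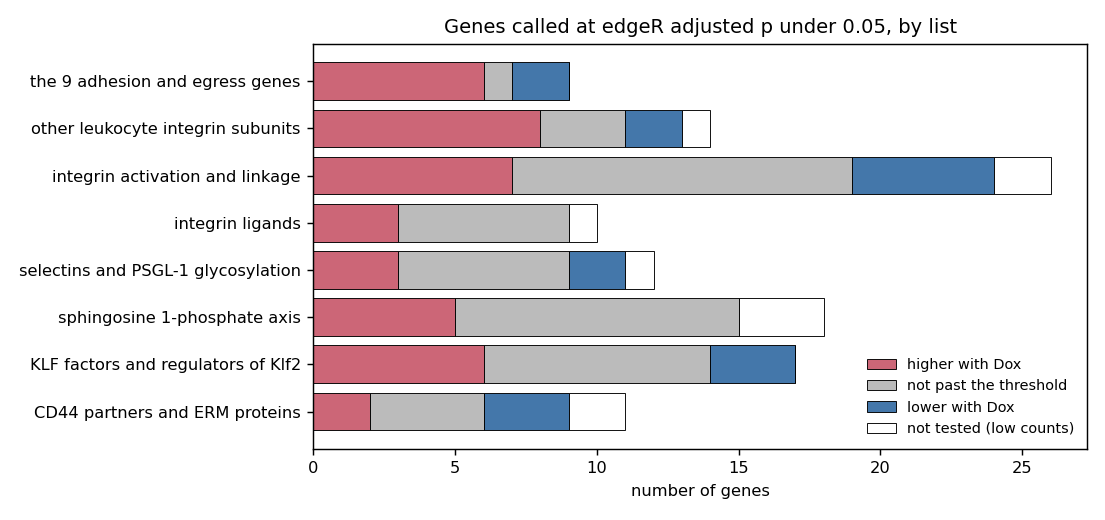
Number of genes (horizontal axis) higher, lower, not past the threshold (edgeR adjusted p under 0.05) or not tested, for the 9 genes and the 7 lists of related genes. Of the 9 genes 6 are higher and 2 lower, and the ligand and sphingosine 1-phosphate lists hold 0 genes called lower.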

How the data were processed

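RNA was measured in 6 QuantSeq 3′ mRNA libraries. The authors deposited raw counts per Entrez gene ID, unscaled and unpooled. STAR, featureCounts and GRCm38 are named in the submitters' processing notes, and versions, annotation and strand setting are not given in the sources used here. Of 40808 gene IDs, 39374 took a symbol from RefSeq (GRCm38.p6), and 0 columns lacked a sample. All genes were fitted together with edgeR 4.0.16 in R 4.3.3 (filterByExpr with minimum count 10 and minimum total 15, TMM factors, quasi-likelihood F-test), adjusted by Benjamini-Hochberg over 14110 genes with a threshold of 0.05. Each SE is the absolute log2 fold change over the root of F. Normalized CPM use TMM-scaled library sizes. Library shares were compared by exact permutation.

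The 9 genes and the lists of genes were chosen with earlier results of these data known. The genes named were the 9, 12 direct partners, and in each of 7 lists the pair of genes with the largest absolute log2 fold change among called genes with separate groups and at least median expression. Some genes of these lists are counted but not reported by name here. Genes of short lists of calls (5 or fewer) outside that rule were named after their values were seen: Itgad, Itga9, Rapgef2, Rasgrp1, Itgb1bp1, B4galt1, Tpst1, S1pr3, Grk2, Sphk2, Klf10, Klf13, Ccm2, Ezr, Rdx and Lck. Of 91 marker entries, 1 was not matched. Alternatives were RLE and upper-quartile factors, library size only, other filters, gene classes left out, DESeq2 1.42.0, limma-voom (limma 3.58.1), a threshold of 0.01, each library left out and, chosen after seeing the data, limma-voom with group weights.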

Additional observations from a re-analysis of the deposited data

How the results depend on the processing

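No paired analysis was possible because no replicate number occurs in both groups. Of 143 alternative values for the 9 genes, 132 kept their direction and side of the threshold, 8 lost the call and 3 gained it, and 0 reversed. The 8 were all of Itgae, whose log2 fold change was 1.98 with limma-voom, 1.79 without a low-count filter, 1.92 at the threshold of 0.01 and 1.62 to 2.39 over the fits that left out a library. The 3 were of Itgb1, at 0.47 with upper-quartile factors, 0.68 with library size only and 0.49 with 10 counts in every library. The strict filter removed Itgae. Leaving out a library kept 6 to 9 of the 9 genes at their rank by level. With library size only, 9 genes of the 7 lists were called lower in place of 15, and at 0.01, 2200 genes were called higher in place of 3324. With limma-voom, with and without group weights, the log2 fold changes of 3 called genes were higher by over 1.5 times in fold: Itga2b (5.27 and 5.27), Klf4 (4.10 and 4.10) and S1pr3 (4.39 and 4.38). Of 633 alternative values for 40 other named genes, 43 lost and 8 gained the call. Among genes that were never called, Cdh1 reversed without replicate 6 (-0.17) and replicate 10 (-0.36, with a range of -0.36 to 1.95 over the left-out libraries), and Cd69 without replicate 12 (-0.37, range -0.37 to 0.89). The cause of these changes was not tested. Counts per library were few for Cdh1 (0 to 18), Itgad (3 to 47), Selp (7 to 53), S1pr5 (0 to 55) and Cd69 (12 to 68), which limits the precision of their values.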
